A study of Homo sapiens with 6 samples.

Results

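Retinoid receptors and the cellular carriers of retinoic acid were followed in SK-N-BE(2) cells, a human neuroblastoma line, after a short hairpin RNA against MYT1 was introduced. The 9 genes were chosen by name: the retinoic acid receptors RARA, RARB and RARG, the retinoid X receptors RXRA, RXRB and RXRG, and the carriers CRABP1, CRABP2 and FABP5. Of these, 8 were matched by Ensembl ID among the 32434 gene IDs of the table, and RXRG was not analysed here. Of the 8, 7 passed a filter of a mean of at least 1 FPKM (fragments per kilobase of exon, scaled between libraries), which 14106 genes passed. RARB lay below it.

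The 6 libraries of total RNA comprised 3 of cells given a control hairpin (shNC) and 3 of cells given the MYT1 hairpin (shMYT1). MYT1 is a DNA-binding zinc-finger protein known from neural development, and the series title links it to neuroblastoma differentiation and retinoic acid signalling. Cells of both groups were infected with lentivirus for 24 h, selected in puromycin for 48 h and grown in RPMI medium with fetal bovine serum, and no retinoic acid treatment is named in the labels. The genotype label calls the shMYT1 cells a knockout, whereas the protocol describes a stable knockdown. No promoter, hairpin sequence, number of hairpins or clone is named, and the labels leave unsaid whether the 3 replicates of a group came from separate cultures, so the p-values given here reflect the spread among libraries, which may be technical.

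Retinoic acid acts in the nucleus through a receptor pair made of a RAR and an RXR, which sits on repeated hexamers in DNA, holds corepressors when empty and exchanges them for coactivators when bound. In the cytoplasm the hormone is held by small carriers: CRABP2 hands it to RARs, CRABP1 is associated with its breakdown and retention in the cytoplasm, and FABP5 is a fatty acid carrier described as handing it to the receptor PPAR delta. RARB is itself a classical target of the pathway, and retinoic acid is used to make neuroblastoma cells differentiate.

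The promoters of 4 members are shown so that the hexamer on which RAR and RXR bind can be looked for directly in them. Each line is a stretch of 120 bases upstream of all annotated exons at that start site (RefSeq sequence, GRCh38.p14), 5′ to 3′ on the gene's strand, and capitals mark the receptor hexamer on either strand. Accepted forms of it were AGGTCA, the common form, then AGTTCA, then also GGTTCA and lastly GGGTCA.
RARB, chr3:25428143-25428262, plus strand: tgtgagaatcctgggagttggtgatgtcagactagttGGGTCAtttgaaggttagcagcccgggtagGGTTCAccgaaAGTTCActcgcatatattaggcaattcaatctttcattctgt
CRABP2, chr1:156705817-156705936, minus strand: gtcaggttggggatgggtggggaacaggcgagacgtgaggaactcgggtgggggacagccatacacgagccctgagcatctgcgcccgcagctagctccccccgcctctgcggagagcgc
RARA, chr17:40309060-40309179, plus strand: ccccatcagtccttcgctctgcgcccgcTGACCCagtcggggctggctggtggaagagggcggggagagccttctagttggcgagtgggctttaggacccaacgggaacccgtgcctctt
CRABP1, chr15:78340204-78340323, plus strand: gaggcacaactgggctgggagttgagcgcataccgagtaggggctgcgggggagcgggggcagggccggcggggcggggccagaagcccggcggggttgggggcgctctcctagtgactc

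The RARB stretch held 3 of these hexamers, the RARA stretch 1, and those of CRABP2 and CRABP1 held 0. In the full windows, which run from 250 bases before to 50 after each RefSeq start, 15 windows of 8 listed genes (RXRG included, FABP5 not) were searched on both strands for direct repeats of the hexamers with 1, 2 or 5 bases between them. A repeat was found in 1 window, that of RARB, as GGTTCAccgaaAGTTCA with 5 bases between the hexamers, beginning 53 bases before the start. Among all 35116 windows, 91 (0.259%) held such a repeat, and 31 (0.0883%) held one with 5 bases between. A single hexamer was found in 38.6% of all windows and in 7 of the 15 windows of these genes. The CRABP2 window held 1, outside the stretch shown, and the CRABP1 window held 0. A match is a description of letters in a window, and the windows do not reach distant elements.

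Sequencing depth was 18158276 to 21677886 fragments per library, as recovered from the FPKM values and exon lengths, with all 3 shMYT1 libraries shallower than the shNC libraries. MYT1 itself was at 5.73, 5.12 and 5.18 FPKM in shNC and at 4.20, 4.13 and 4.36 FPKM in shMYT1, a difference of -20.8% (limma adjusted p = 0.0102). Of 10 noradrenergic neuroblastoma markers, among them HAND2 and TH, all 10 passed the filter, and their summed level was 3016 to 3175 FPKM in shNC and 2612 to 2715 FPKM in shMYT1. The summed level of 3 endothelial markers was at most 0.146 FPKM and that of 3 leukocyte markers at most 0.191 FPKM in every library. For 4 Schwann cell and glial markers it was 2.10 to 2.25 FPKM in shNC and 2.55 to 3.26 FPKM in shMYT1, and for 4 epithelial markers it was at most 1.74 FPKM. The summed level of 7 fibroblast markers was 161 to 165 FPKM in shNC and 113 to 116 FPKM in shMYT1. Of 6 tested fibroblast markers 3 fell (LUM, DCN and COL1A1), 2 rose (COL3A1 by 0.23 and PDGFRA by 0.33 on the log2 scale) and PDGFRB did not pass, and COL1A2 was near 0. The part of these markers in the results below was not tested. In bulk RNA, fewer cells of a kind and less RNA per cell cannot be told apart.

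The carriers differed between shMYT1 and shNC libraries, and not all in the same direction. CRABP2 rose 2.60-fold, FABP5 fell by 39.1% and CRABP1 fell by 12.8%. Among the receptors RARA rose 1.46-fold, while RARG, RXRA and RXRB did not pass the test. The 4 calls among 7 tested members, 2 in each direction, stand beside a background in which 24.2% of all tested genes passed (limma, adjusted p under 0.05, 11.9% upward and 12.3% downward). The median log2 fold change was 0.04 over the 7 members and -0.005 over all tested genes. Each log2 fold change is the shMYT1 mean less the shNC mean of log2(FPKM + 1), a scale that understates changes of scarce transcripts.

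**Figure D1:**
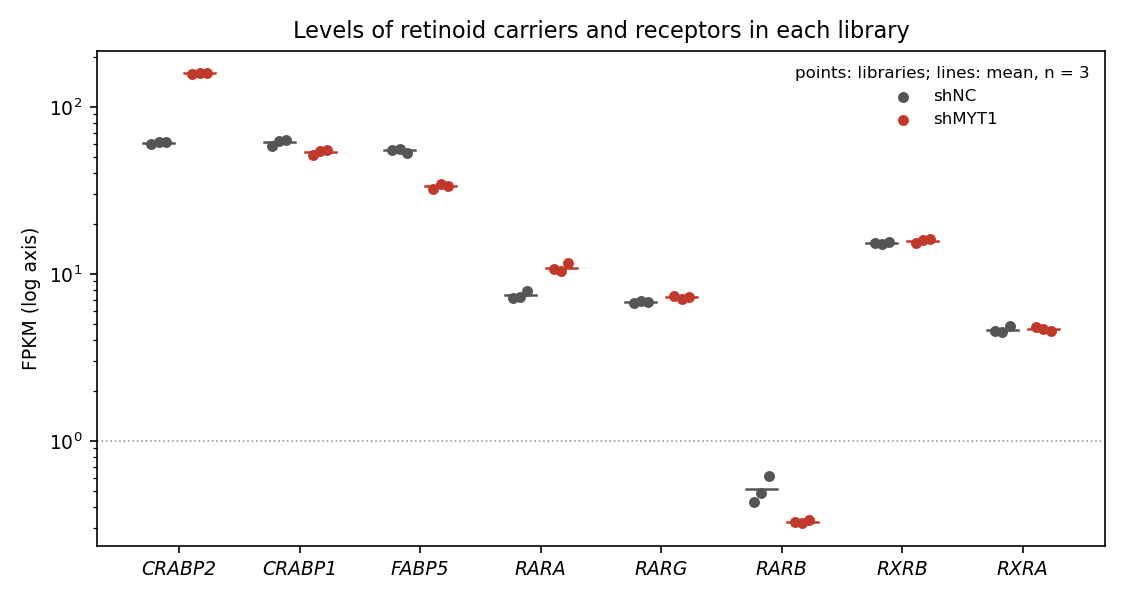
Level of each analysed member in FPKM on a log axis, with grey points for the 3 shNC and red points for the 3 shMYT1 libraries and short lines at the group means. The dotted line at 1 FPKM is the filter, under which RARB alone lies. CRABP2 is set apart by the gap between its groups, 60.2 to 61.4 against 158 to 159 FPKM.

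In control cells the carriers lay far above the receptors. FPKM is a level per exon length, and the genes are ordered on it here. That length counts every annotated exon base of a gene, 2077 for FABP5, 1100 for CRABP2 and 993 for CRABP1. A shorter main transcript would raise a gene's level, so the order and the shares below depend on this choice. CRABP1 (61.6 ± 2.58 FPKM, SD, n = 3) and CRABP2 (61.0 ± 0.62 FPKM, SD, n = 3) overlapped, and FABP5 followed at 54.8 ± 1.5 FPKM (SD, n = 3). RXRB came next at 15.3 FPKM, then RARA at 7.45, RARG at 6.76, RXRA at 4.63 and RARB at 0.512 FPKM, with no overlap between neighbours in this order from CRABP2 downward. In shMYT1 cells CRABP2 stood first and the order of the other members was kept, with no overlap between any neighbours.

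CRABP2 (ENSG00000143320, hg38, chr1:156699606-156705816, minus strand) was at 60.2, 61.4 and 61.3 FPKM in shNC. In shMYT1 it was at 158, 159 and 159 FPKM. The 3 shMYT1 libraries lay close together, far above the equally tight shNC group. On the log2 scale the change was 1.36 (SE 0.02, limma adjusted p = 1.02e-06), a size that 0.191% of all tested genes reached or exceeded in either direction. Between 1413 and 3462 fragments lay behind each value. Counting alone would give an SD of 1.62 FPKM in shNC and 2.79 FPKM in shMYT1, so the observed SDs of 0.62 and 0.67 FPKM lie below counting error. CRABP2 shares no exon bases with another gene.

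CRABP1 (ENSG00000166426, chr15:78340324-78348230, plus strand), the closest relative of CRABP2, moved the other way. Its level was 58.6, 62.8 and 63.3 FPKM in shNC and 51.6, 54.7 and 54.9 FPKM in shMYT1. The groups did not overlap, although the lowest shNC library lay only a little above the highest shMYT1 library. The log2 fold change was -0.19 (SE 0.04, limma adjusted p = 0.0166). The call was lost without shNC replicate 2 (limma adjusted p = 0.0632) and without shMYT1 replicate 1 (0.0543), and a change of this size or more was seen in 27.4% of all tested genes. Of its 993 exon bases, 469 are shared with AC011270.2, a gene on the opposite strand that was itself at no more than 12 fragments per library. How fragments in the shared bases were counted is not given in the sources used here, so the level of CRABP1 is uncertain.

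FABP5 (ENSG00000164687, chr8:81280363-81284777, plus strand) was at 55.2, 56.0 and 53.1 FPKM in shNC. In shMYT1 it was at 32.3, 34.3 and 33.6 FPKM, and the groups lay far apart, with shMYT1 lower. On the log2 scale the change was -0.70 (SE 0.03, limma adjusted p = 9.08e-05), a size reached by 1.86% of all tested genes. FABP5 has pseudogenes elsewhere in the genome, and FABP5P7 on chromosome 11 was at 48.9 ± 0.97 FPKM in shNC and 29.96 ± 2.36 FPKM in shMYT1 (SD, n = 3 each). Its log2 fold change was -0.69, with SE 0.05 (limma adjusted p = 0.000466). FABP5P7, picked after its values were seen, thus had nearly the level and nearly the change of FABP5 itself. How fragments that fit both copies were counted is not given in the sources used here, so the level of FABP5 is uncertain. FABP5P1 and FABP5P2 held at most 6 fragments per library.

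Summed over the 3 carriers, the level was 174, 180 and 178 FPKM in shNC and 242, 248 and 247 FPKM in shMYT1. In control cells the sum was nearly evenly divided, with 34.4 ± 0.29% from CRABP2, 34.7 ± 0.98% from CRABP1 and 30.9 ± 0.92% from FABP5 (SD, n = 3). In shMYT1 cells CRABP2 supplied 64.5 ± 0.65%, CRABP1 21.9 ± 0.45% and FABP5 13.6 ± 0.24% (SD, n = 3). On these values the carrier sum was larger in shMYT1 and was made up mostly of CRABP2. The shares depend on the exon length used for each gene and on the uncertain levels of CRABP1 and FABP5.

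**Figure D2:**
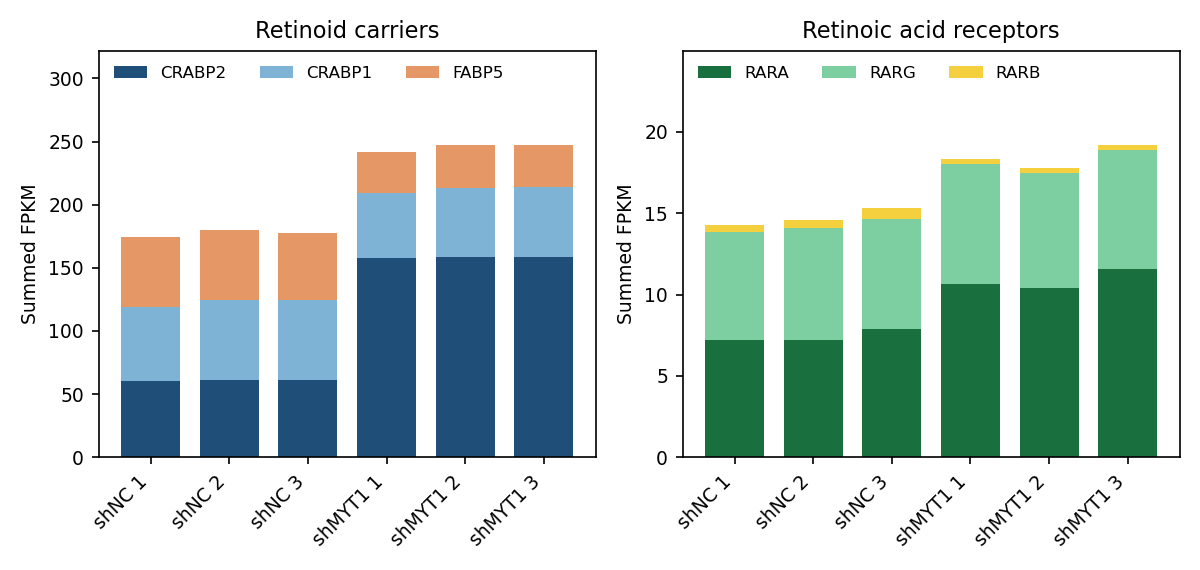
Stacked bars of FPKM in each of the 6 libraries, for the 3 carriers (left) and the 3 retinoic acid receptors (right), each axis starting at 0. The dark blue CRABP2 part grows from about 61 to about 158 FPKM while the orange FABP5 part shrinks, and in the right panel the dark green RARA part grows while RARB stays a thin band.

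The ratio of CRABP2 to FABP5, the carriers of the RAR route and of the PPAR delta route, was 1.09, 1.10 and 1.15 in shNC and 4.89, 4.63 and 4.74 in shMYT1. This is a log2 difference of 2.09 (SE 0.03). The ratio of CRABP2 to CRABP1 was 1.03, 0.976 and 0.968 in shNC and 3.06, 2.90 and 2.90 in shMYT1, a log2 difference of 1.58 (SE 0.04). Neither ratio overlapped between groups. Two-sided exact permutation over libraries returned p = 0.1 for each, which is the lower limit of a 3 against 3 design, and 0.125 after Benjamini-Hochberg adjustment over the 5 ratios computed.

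RARA (ENSG00000131759, chr17:40309192-40357643, plus strand), the alpha form of the retinoic acid receptor, was at 7.21, 7.22 and 7.90 FPKM in shNC. In shMYT1 it was at 10.6, 10.4 and 11.6 FPKM. The groups did not overlap, with shMYT1 higher. The log2 fold change was 0.49 (SE 0.05, limma adjusted p = 0.00140), a size that 4.88% of all tested genes reached. RARA shares 556 of its 4731 exon bases with RARA-AS1 and 291 with AC080112.3, both on the opposite strand. These were at 18 to 40 and 16 to 33 fragments per library, against 717 to 1003 for RARA.

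RARG (ENSG00000172819, chr12:53210567-53232980, minus strand), the gamma form, was at 6.65, 6.85 and 6.77 FPKM in shNC and at 7.41, 7.03 and 7.31 FPKM in shMYT1. The groups did not overlap, as in 42.3% of all tested genes, yet the log2 fold change of 0.09 (SE 0.04, 95% interval 0.003 to 0.17) did not pass (limma adjusted p = 0.124). The ratio of RARA to RARG was 1.09, 1.05 and 1.17 in shNC and 1.43, 1.48 and 1.58 in shMYT1 (log2 difference 0.44, SE 0.06). Those ratios did not overlap (exact two-sided permutation p = 0.1, adjusted p = 0.125 over the 5 ratios).

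RARB (ENSG00000077092, chr3:25174332-25597932, plus strand), whose promoter holds the repeat shown above, was the scarcest member. It was at 0.428, 0.490 and 0.619 FPKM in shNC and at 0.325, 0.321 and 0.335 FPKM in shMYT1. The groups did not overlap, with shMYT1 lower, and 34 to 48 fragments stood behind the shNC values and 21 to 24 behind those of shMYT1. In a fit without the filter, in which 7.89% of 32434 genes passed, its log2 fold change was -0.19 (SE 0.07) and it did not pass (limma adjusted p = 0.197). Counting alone would give an SD of 0.0692 FPKM in shMYT1, far above the observed 0.00706 FPKM, so the closeness of these 3 libraries says little about precision. With a pseudocount of 0.1 the log2 fold change was -0.51 (limma adjusted p = 0.275). RARB shares 28 of its 3697 exon bases with TOP2B on the opposite strand, which was at 3121 to 3714 fragments per library.

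Summed RAR level was 14.3, 14.6 and 15.3 FPKM in shNC and 18.4, 17.8 and 19.2 FPKM in shMYT1. RARA supplied 50.6 ± 1.04% of it in shNC and 58.9 ± 1.2% in shMYT1 (SD, n = 3), RARG 45.9% and 39.3%, and RARB 3.47% and 1.77%.

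The RXRs are the shared partners of RARs and of many other nuclear receptors. RXRB (ENSG00000204231, chr6:33193588-33200688, minus strand) was at 15.2, 15.1 and 15.5 FPKM in shNC and at 15.2, 16.0 and 16.1 FPKM in shMYT1. It shares 244 exon bases with SLC39A7 on the opposite strand, which was at 1649 to 2195 fragments per library, against 1109 to 1281 for RXRB. The part of SLC39A7 in the RXRB level was not tested. RXRA (ENSG00000186350, chr9:134317098-134440585, plus strand) was at 4.53, 4.47 and 4.90 FPKM in shNC and at 4.80, 4.70 and 4.54 FPKM in shMYT1. Both sets of groups overlapped. The log2 fold change was 0.04 for RXRB (95% interval -0.04 to 0.12, limma adjusted p = 0.385) and 0.01 for RXRA (95% interval -0.10 to 0.12, limma adjusted p = 0.864). RXRB supplied 76.7% of the summed RXR level in shNC and 77.1% in shMYT1, and the ratio of RXRA to RXRB was 0.303 ± 0.011 and 0.297 ± 0.017 (SD, n = 3; log2 difference -0.03, SE 0.06, exact two-sided permutation p = 0.5, adjusted p = 0.5). The ratio of RARA to RXRA was 1.59, 1.61 and 1.61 in shNC and 2.21, 2.22 and 2.55 in shMYT1 (exact two-sided permutation p = 0.1, adjusted p = 0.125). The ratio of summed RXR to summed RAR level was 1.35 ± 0.024 in shNC and 1.11 ± 0.048 in shMYT1 (SD, n = 3).

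**Figure D3:**
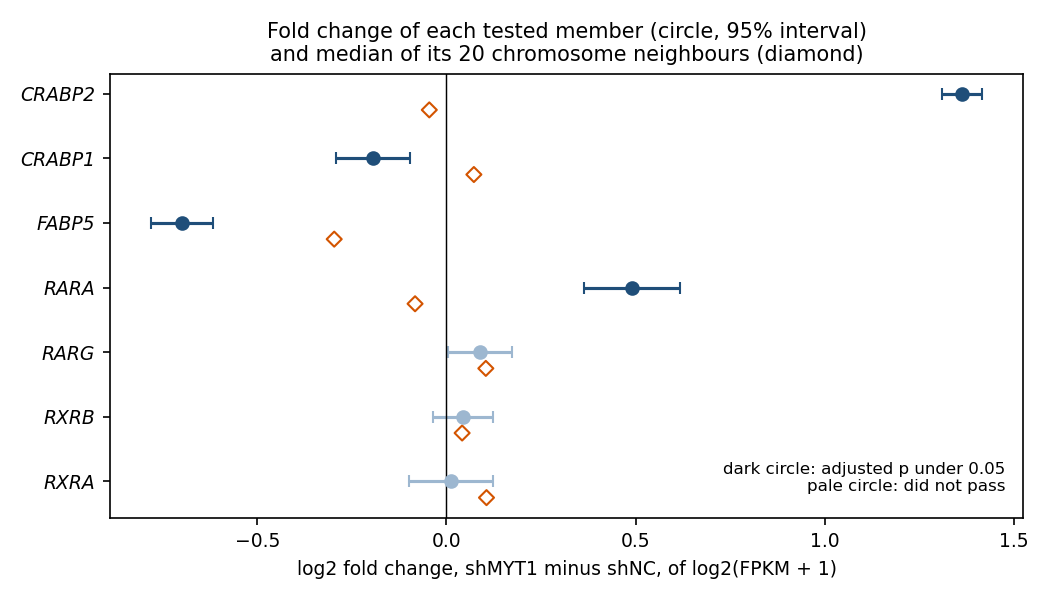
Log2 fold change of the 7 tested members (circles with 95% intervals from limma, dark where adjusted p was under 0.05) and the median of the 20 nearest tested genes on the same chromosome (open diamonds). CRABP2 and RARA stand at 1.36 and 0.49 while their neighbours' medians are near 0, and FABP5 at -0.70 stands beside a neighbours' median of -0.30.

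Genes next to each member on its chromosome were compared to see whether a member moved with its surroundings. For each member the 10 nearest tested genes on either side were taken. Around CRABP2 their median log2 fold change was -0.05, and 2 rose and 4 fell. Its direct neighbours NES, the intermediate filament gene nestin, and ISG20L2 had values of -0.04 and -0.06 (limma adjusted p = 0.429 and 0.20).

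Around RARA the median was -0.08. CDC6, a replication licensing gene next to it, was at -0.03 (limma adjusted p = 0.642), and the topoisomerase gene TOP2A fell by 0.17 on the log2 scale (limma adjusted p = 0.0180). THRA, a thyroid hormone receptor gene and RXR partner in the same stretch, was at 0.04 (limma adjusted p = 0.466). In all, 2 neighbours rose, AC080112.1 (0.27, limma adjusted p = 0.0237) and the mediator gene MED24 (0.16, limma adjusted p = 0.0443), and 6 fell. The keratin genes KRT17 (-2.53, limma adjusted p = 6.23e-07) and KRT16 (-0.66, limma adjusted p = 0.0170), the farthest from RARA, were the lowest of these.

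Around CRABP1 the median was 0.07, against -0.19 for CRABP1. There 6 genes rose, among them the nicotinic receptor genes CHRNA3 (0.64) and CHRNB4 (0.76; limma adjusted p = 6.25e-05 and 0.000326), and 1 fell, TBC1D2B. Around FABP5, 19 of 20 neighbours were below 0, 14 fell, 0 rose, and the median was -0.30 with a range of -0.48 to 0.0001. FABP5 fell by more than each of them. With a running median of the 50 nearest genes removed, the log2 fold change of FABP5 was -0.48 (limma adjusted p = 0.000307).

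**Figure D4:**
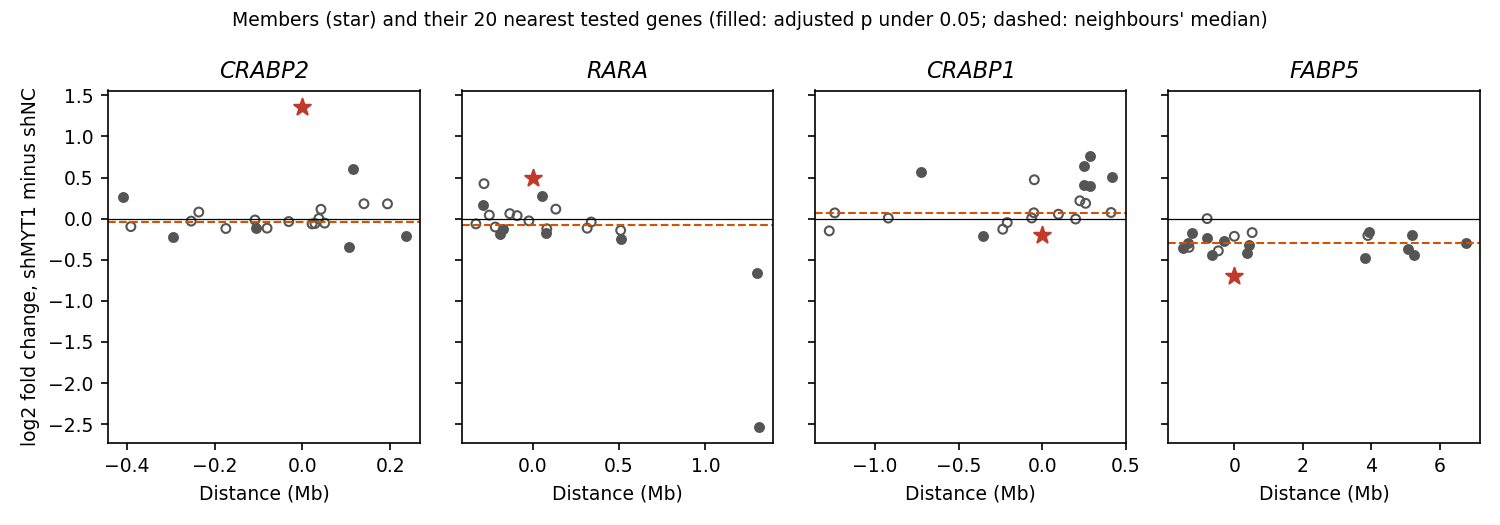
Log2 fold change of 4 members (red stars at distance 0) and their 20 nearest tested genes against the distance between gene starts in Mb. Filled circles passed at adjusted p under 0.05, and dashed lines mark the neighbours' medians of -0.05, -0.08, 0.07 and -0.30 from left to right.

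Around the receptors that did not pass, neighbours' medians were 0.10 for RARG, 0.11 for RXRA and 0.04 for RXRB.

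Genes whose 6 values, less the shNC mean on the log2(FPKM + 1) scale, lay nearest to those of a called member were found by Euclidean distance among 11175 other protein-coding genes. For CRABP2 these were LRRC55 (distance 0.0969, 1.19 to 4.83 FPKM), SCGN, which encodes the calcium-binding protein secretagogin (0.110, 11.5 to 30.7 FPKM), and PARM1 (0.131, 0.272 to 2.43 FPKM). Only 7 genes lay within a distance of 0.2 of CRABP2. For FABP5 they were the complement gene C7 (0.0590, 11.99 to 7.14 FPKM), IGFBP3, an insulin-like growth factor binding protein (0.0722, 77.1 to 47.2 FPKM), and PHACTR2 (0.0791, 2.22 to 0.970 FPKM), with 29 genes within 0.2. For RARA they included PLEKHG5 (0.0397) and the T-box factor gene TBX2 (0.0693), with 141 genes within 0.2. For CRABP1 they were CNRIP1 (0.0354), CCDC174 (0.0388) and PPP1R3E (0.0529), and 1294 genes lay within 0.2. These numbers follow the size of each member's change, since many more genes changed as much as CRABP1 than as much as CRABP2. PARM1 lay below 1 FPKM in shNC, where the pseudocount of 1 shrinks its change, so it is like CRABP2 on this scale and not in its ratio of levels.

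Coregulators, which receptors recruit to silence or activate genes, were counted next. Of 16 listed, 15 were tested, 1 rose and 4 fell, which is 33.3% called against 24.2% of all tested genes, with a median of -0.04. The level of the corepressor gene NCOR1, 8.83 ± 0.32 FPKM in shNC, fell to 7.89 ± 0.26 FPKM in shMYT1 (SD, n = 3; limma adjusted p = 0.0442). TBL1X, a subunit of the corepressor complex, fell from 8.17 to 6.79 FPKM. The coactivator gene NCOA2 fell by 0.49 on the log2 scale and lies on chromosome 8, as FABP5 does. NRIP1, a ligand-dependent corepressor, fell from 8.85 to 7.15 FPKM (limma adjusted p = 0.00598). HDAC3, NCOA1, NCOA3, EP300 and CREBBP did not pass.

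Of 21 genes of retinoid uptake and metabolism, 18 had values and 7 were tested, of which 1 rose and 2 fell (42.9% called against 24.2% of all tested genes, median -0.05). RDH10, which oxidises retinol, rose from 3.43 ± 0.22 to 4.53 ± 0.08 FPKM (limma adjusted p = 0.0056), and RDH11 fell from 15.2 ± 0.32 to 13.8 ± 0.23 FPKM (SD, n = 3 each). RDH10 lies on chromosome 8 between NCOA2 and FABP5, both of which fell. The uptake receptor gene STRA6 was at 9.79 and 9.40 FPKM and did not pass. The genes of retinoic acid synthesis ALDH1A1 and ALDH1A2 were under 0.02 FPKM on average in both groups, and ALDH1A3 was at 0.865 and 0.778 FPKM. The degrading enzyme genes CYP26A1, CYP26B1 and CYP26C1 were at or near 0, with group means of at most 0.0416 FPKM.

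**Figure D5:**
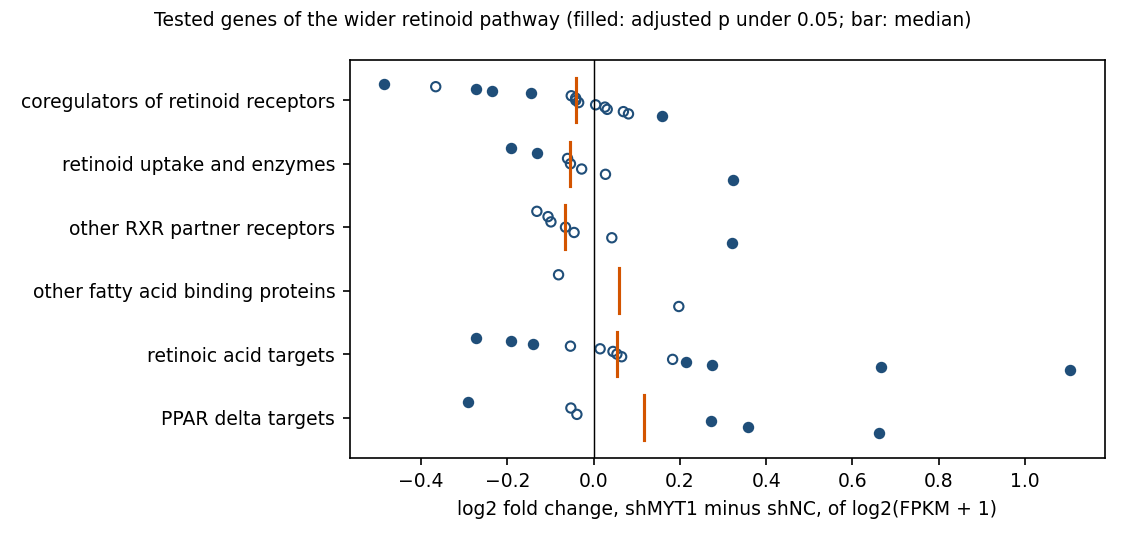
Log2 fold change of the tested genes in 6 lists around the members, 1 point per gene, filled where limma adjusted p was under 0.05, with an orange bar at each list's median. Points lie on both sides of 0 in every list, and TGM2 is the point farthest to the right.

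Among other nuclear receptors that pair with RXRs, 7 of 13 were tested, 0 fell and 1 rose (14.3% called against 24.2% of all tested genes, median -0.07), NR1H2, a liver X receptor gene (5.49 ± 0.14 to 7.11 ± 0.29 FPKM, SD, n = 3; limma adjusted p = 0.00275). PPARD, the receptor that FABP5 serves, was at 10.3 ± 1.04 and 9.51 ± 0.55 FPKM (SD, n = 3 each) and did not pass (limma adjusted p = 0.373). Of 9 other fatty acid binding proteins 2 were tested and 0 passed by limma, neither at an unadjusted p under 0.05: FABP6 was at 20.8 and 19.6 FPKM, and FABP3 at 3.15 and 3.74 FPKM.

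Of 9 PPAR delta targets, 6 were tested, 3 rose and 1 fell, 66.7% called against 24.2% of all tested genes, with a median of 0.12. CPT1A, the entry enzyme of mitochondrial fatty acid oxidation, rose from 11.1 ± 0.47 to 18.05 ± 0.18 FPKM, and the acyl-CoA dehydrogenase gene ACADVL from 15.8 ± 0.74 to 20.5 ± 0.34 FPKM (SD, n = 3 each). ILK, at 0.973 FPKM in shNC and 1.38 FPKM in shMYT1, is counted among those that rose, but lay below 1 FPKM in shNC and passed the filter through its shMYT1 values. PLIN2, a lipid droplet protein gene, fell from 13.4 ± 0.91 to 10.8 ± 0.13 FPKM (SD, n = 3 each).

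Of 20 retinoic acid targets outside the members, 13 were tested, 4 rose and 3 fell, 53.8% called against 24.2% of all tested genes, with a median of 0.05. TGM2, which encodes a transglutaminase, rose from 1.39 ± 0.05 to 4.15 ± 0.15 FPKM, and NR2F1, an orphan receptor gene, from 0.839 ± 0.16 to 1.91 ± 0.08 FPKM (SD, n = 3 each). NR2F1 lay below 1 FPKM in shNC and passed the filter through its shMYT1 values. MEIS1, a homeobox gene, rose by 0.27 and NAV2, a neuron navigator gene, by 0.22 on the log2 scale. MEIS2 fell by 0.14 on the same scale, and NRIP1, described above, is also on this list. RET, a receptor tyrosine kinase gene induced by retinoic acid in neuroblastoma, was at 35.8 and 37.5 FPKM and did not pass (limma adjusted p = 0.163).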

How the data were processed

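Total RNA of 3 shNC and 3 shMYT1 libraries was used. The authors deposited FPKM, 1 column per library. The submitters' processing notes name HISAT2 2.0.5 as well as featureCounts 1.5.0-p3 and the build hg38. Which annotation, strand option or filter was used is not given in the sources used here. Median ratios between libraries were equal, so values were used as deposited. The library size implied by the FPKM values was not the recovered fragment total. It was 17681800 against 18162497 in shMYT1 replicate 2 and 21476000 against 21677886 in shNC replicate 1. Symbols, positions and exon lengths came from GENCODE 29 (99.6% of IDs matched). FPKM times exon length gave whole fragments, within 0.01, in all libraries for 95.4% of those IDs. RXRA and MYT1 were not among them, so their fragment numbers are approximate.

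The filter kept genes averaging 1 FPKM or more. These entered a two-sided limma 3.58.1 fit (R 4.3.3) with trend on log2(FPKM + 1), and Benjamini-Hochberg adjustment ran over all genes. RARB came from the same fit without the filter. The method was tested on simulated data. Ratios were tested by exact permutation. Members and lists were chosen with earlier results of these data known. The rule named the members, MYT1, up to 3 passing genes per list with the largest change (or the 2 highest where none passed) and the 3 nearest profiles per called member. Other list genes, chromosome neighbours and pseudogenes were named after their values were seen. Alternatives in pseudocount, filter, scaling, regional median, voom on fragments, replicate block and left-out libraries are in the closing section. Protein sequences were not used here. Some named results are not reported here, although counts and sums include all list members. Counting SDs cover counting error only.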

Additional observations from a re-analysis of the deposited data

How the results depend on the processing

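Over 16 alternatives each, CRABP2 (log2 fold change 1.33 to 1.38), FABP5 (-0.73 to -0.48) and RARA (0.45 to 0.55) kept their direction and stayed past the threshold (limma, highest adjusted p 0.000223, 0.00248 and 0.00882). CRABP1 passed in 14 of 16, and left-out libraries gave -0.23 to -0.17. RARG (16 alternatives) and RARB (14) never passed. RXRA was -0.017 with FPKM totals made equal, -0.076 after removal of the regional running median, and -0.0072 to 0.047 with a library left out; the values below 0 were -6.8e-05 (shNC replicate 1 left out), -0.0072 (shNC replicate 2) and -0.0016 (shMYT1 replicate 1). RXRB was -0.015 after removal of the regional running median. The log2 difference in the ratio of RXRA to RXRB ran from -0.074 to 0.0066 with a library left out, 0.0066 being the value without shMYT1 replicate 3. For these the cause was not tested. The threshold was passed by 3420 genes as reported, by 2038 to 3048 with a library left out (2195 without shNC replicate 1, 2038 without shNC replicate 2, 2196 without shMYT1 replicate 1, with fewer samples), and by 2558 to 4131 otherwise. Scaling to a common FPKM total lowered the share of calls that rose from 49.2% to 36.4%. With the replicate block 3381 genes passed and no member changed its call. Deviations of same-numbered libraries correlated at 0.0127 to 0.0426. Each library correlated best with its own number, but values this small cannot show whether libraries were paired. In the 3 against 3 design no ratio could pass. Depth limits RARB most, at 21 to 48 fragments.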
